A study of Mus musculus with 37 samples.

Results

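The genes described here encode 59 transcription factors of the basic helix-loop-helix (bHLH) family, listed by name and family membership and found by symbol among the 48795 genes counted in the hippocampus of control and Kdm1a-ifKO mice. They comprise 15 neurogenic factors, 8 genes of the Hes/Hey group, the 2 related repressors Bhlhe40 and Bhlhe41, 4 Id genes, 3 E proteins, 4 myogenic factors, 11 mesodermal factors, 3 factors of blood development, 2 of germ cells, 3 Myc genes and 4 factors with a PAS domain. All 59 have a coordinate in the GENCODE M21 annotation of GRCm38.

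Kdm1a-ifKO mice carried loxP sites around exons 5 and 6 of both Kdm1a alleles (Kdm1a f/f) together with the transgene Camk2a-creERT2, on a C57BL/6J background. Tamoxifen was given intragastrically in 5 doses at 8 weeks of age. The controls, labelled WT, were littermates without the recombinase that received tamoxifen too, so that the transgene itself also differs between the groups and cannot be told apart from the deletion. All 6 mice were male, each gave 1 library of bulk hippocampal RNA (3 per group), and the age at collection of the RNA is not given in the sources used here. The Camk2a driver restricts recombination to principal neurons of the forebrain, while the tissue also holds interneurons, glia, vessels and other cells in which Kdm1a is not deleted.

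A bHLH protein binds DNA as a dimer, with its basic region in contact with a short sequence called the E-box (CANNTG), and the helix-loop-helix region holds the partners together. Neurogenic, myogenic and mesodermal factors usually pair with the broadly expressed E proteins, Id proteins lack the basic region and sequester those partners, and Hes and Hey proteins act as repressors downstream of Notch, the Hes proteins together with Groucho corepressors. In the hippocampus, some members drive the birth and maturation of principal neurons and stay on in adult neurons, whereas others belong to glia, to vessels, or to lineages outside the nervous system where they start muscle, mesoderm, blood or germ cell programs.

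Totals of 19160327, 19088998 and 18985542 counts were reached by control replicates 1, 2 and 3, and of 19469947, 19445743 and 19370926 by their Kdm1a-ifKO counterparts. Levels are given as CPM, in which counts are scaled to library totals. Kdm1a (ENSMUSG00000036940, chr4:136550540-136602723) served as the check of the labels. It had 1521, 1545 and 1481 counts in the controls and 764, 726 and 748 in the Kdm1a-ifKOs. Every Kdm1a-ifKO library was below every control library, and the level fell from 80.1 ± 0.897 to 38.2 ± 1.23 CPM (SD, n = 3 each; log2FC -1.07, standard error 0.0559, adjusted p = 6.24e-08). Adjusted p-values throughout come from edgeR's quasi-likelihood test, with the adjustment of Benjamini-Hochberg made over 16799 genes with enough counts to be tested, and a gene is called at an adjusted p under 0.05. Standard errors are the absolute log2FC divided by the square root of that test's F statistic. A second tool, DESeq2, gave a larger standard error for every called bHLH gene. For Tcf24 it was 0.326 against 0.143 here, and for Tcfl5 0.625 against 0.341, so the values given can understate the uncertainty at low control counts. The remaining transcript was measured in whole tissue, where Kdm1a is kept in the cells that do not carry the active driver.

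Of the 59 bHLH genes, 42 passed the filter and 17 did not. In this comparison 13 members were higher in Kdm1a-ifKOs, against 6.04% of all tested genes, and 2 were lower, against 2.82%. With a log2FC over 1 there were 9 higher members, where all tested genes gave 1.36%. Of the 42, 7 had all 3 Kdm1a-ifKO libraries over the cutoff of the filter but not all 3 controls (Bhlhe23, Myod1, Tcf24, Mesp1, Mesp2, Tcfl5 and Twist1). The control counts of Mesp2 (13, 13 and 8) and Twist1 (27, 8 and 21) lay on both sides of that cutoff, near 10 counts. The other 35, whose controls passed by themselves, were also counted apart. Among these 35, 7 were called higher, against 5.78% of all genes that passed through the control libraries, and 2 lower, against 2.96%. Of the 9 with a log2FC over 1, 3 were among the 35 (Neurog2, Hes7 and Tcf15), against 0.869% of such genes. The groups were fully apart, with all Kdm1a-ifKO libraries on the higher side, in 20 of the 42 tested members (15.7% of all tested genes), and on the lower side in 3 (14.4%). These 20 include all but Twist1 of the 7 members whose controls did not pass by themselves, and whose position follows in part from the filter. The 27 members that were not called had a log2FC between -0.25 (Twist2) and 0.63 (Twist1). Members that were neither called nor the most abundant of their subfamily are described by values picked after the results were seen.

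The levels of the members in control hippocampi spanned from 0 to 375 TPM, a scale of transcripts that divides the counts by exon length and serves to compare genes. Neurod6 ranked 1 at 375 ± 14.1 TPM (SD, n = 3), followed by Neurod2 at 200.4 ± 19.02 TPM and Olig1 at 169 ± 4.95 TPM. The lowest control library of Neurod6, at 359.9 TPM, was above the highest of Neurod2, at 219 TPM, whereas the lowest of Neurod2 was 181 TPM and the highest of Olig1 was 173 TPM, so that these ranks did not overlap between libraries. At the other end, 23 of the 59 members had a mean under 1 TPM in controls. Of the 13 members called higher, 8 had a control mean under 1 CPM, where the median of all tested genes was 18.4 CPM. Among these 8, only Hes7 and Tcf15 passed the filter through the controls. The rest passed through the Kdm1a-ifKO libraries, so that their low control level follows in part from the filter. Mesp2 is a partial exception, since control replicates 1 and 2 were over the cutoff (13 counts each). No count was found in any of the 6 libraries for 6 members, Neurog3, Olig3, Myf5, Tcf21, Hand1 and Hand2, and the 11 others below the filter summed to at most 40 counts over the 6 libraries.

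**Figure D1:**
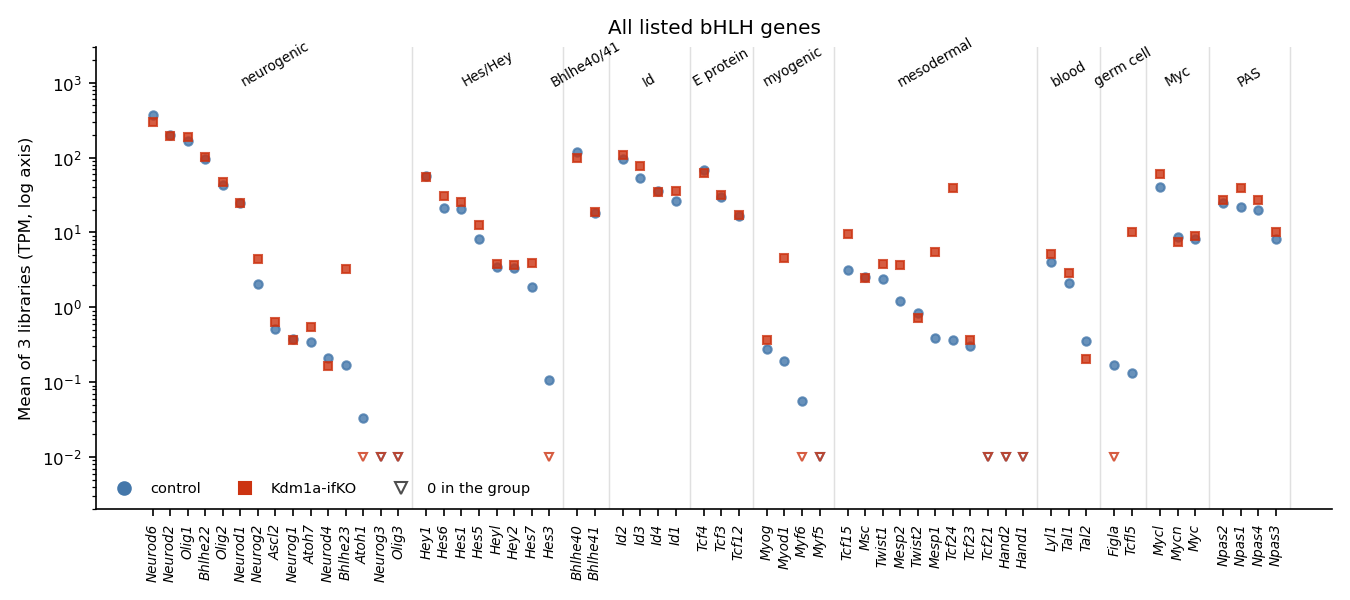
Mean level of all 59 bHLH genes in TPM (log axis, means of 3 libraries), ordered by subfamily and by control level, with controls as circles, Kdm1a-ifKOs as squares and means of 0 as open triangles. Neurod6 stands highest in controls at 375 TPM, and Tcf24 goes from 0.367 to 38.8 TPM.

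**Figure D2:**
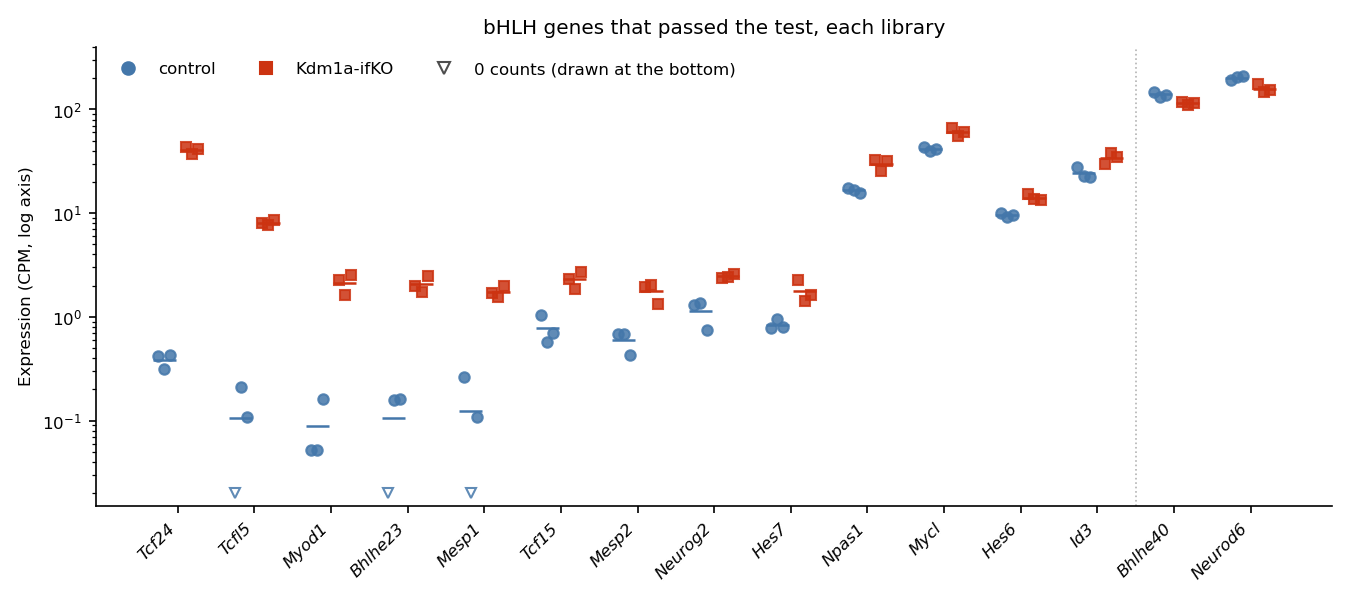
Expression in CPM (log axis) of the 15 members that passed the test, each library as a point (circles, controls; squares, Kdm1a-ifKOs), group means as lines and libraries with 0 counts as open triangles at the bottom. The 13 members left of the dotted line were higher in Kdm1a-ifKOs, from Tcf24 (log2FC 6.69) to Id3 (0.50), and Bhlhe40 and Neurod6 were lower.

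Among the 15 neurogenic factors, 8 were tested, 2 were higher and 1 was lower in Kdm1a-ifKOs. Over all tested genes 6.04% were higher and 2.82% lower, the shares that belong beside the counts of every subfamily and list below. Of the 7 neurogenic factors that passed the filter through the controls, 1 was higher and 1 lower. Neurod6 (ENSMUSG00000037984, chr6:55677822-55681263, minus strand), a factor of differentiated principal neurons of cortex and hippocampus, had 3709, 3892 and 3919 counts in the controls and 3390, 2882 and 3026 in the Kdm1a-ifKOs. It fell from 203 ± 8.41 to 159 ± 14.3 CPM (SD, n = 3 each; log2FC -0.36, standard error 0.0651, adjusted p = 0.00419), and the highest Kdm1a-ifKO library stayed under the lowest control library. In bulk samples, fewer cells of a type and less RNA per cell cannot be told apart. Neurog2 (ENSMUSG00000027967, chr3:127633135-127635631, plus strand), a proneural factor of the progenitors of glutamatergic neurons, had 25, 26 and 14 counts in the controls and 46, 48 and 51 in the Kdm1a-ifKOs. The groups did not overlap, and Neurog2 rose from 1.14 ± 0.338 to 2.47 ± 0.131 CPM (SD, n = 3 each; log2FC 1.11, standard error 0.244, adjusted p = 0.0129). Its log2FC was 0.89 without control replicate 3, the control with the fewest counts, and its adjusted p was at most 0.0472 with any library left out.

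Bhlhe23 (ENSMUSG00000045493, chr2:180774381-180776900, minus strand) is a relative of the Olig genes known from retinal and other neuronal differentiation. It had 0, 3 and 3 counts in the controls and 39, 34 and 48 in the Kdm1a-ifKOs. This is a ratio of 19.5 (95% interval 8.72 to 54.3), an interval that covers counting error only, and a fitted log2FC of 4.21 (standard error 0.467, adjusted p = 7.00e-05), which depends on the prior count of the fit at such low control counts. Every Kdm1a-ifKO library was above the controls, at 0.106 ± 0.0920 against 2.07 ± 0.373 CPM (SD, n = 3 each). Bhlhe23 shares a stretch with Gm14343 on the same strand, which had 0 counts in the controls and 3 in the Kdm1a-ifKOs. How reads in that overlap were assigned is not known from the counts.

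The other tested neurogenic factors were not called. Olig1 and Olig2, which specify oligodendrocytes, had a log2FC of 0.16 and 0.10. Neurod1, required for the survival of newborn granule cells, had 292, 339 and 324 counts against 344, 287 and 354, a log2FC of -0.0014 with overlapping groups. Neurod2, active in mature principal neurons, had a log2FC of -0.068, and Bhlhe22, which shapes cortical projection neurons, of 0.056. The lowest adjusted p among these 5 genes was 0.120 (Olig1). Below the filter, Ascl2, Neurod4, Neurog1, Atoh1 and Atoh7 had at most 27 counts over the 6 libraries, and Neurog3 and Olig3 had 0.

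**Figure D3:**
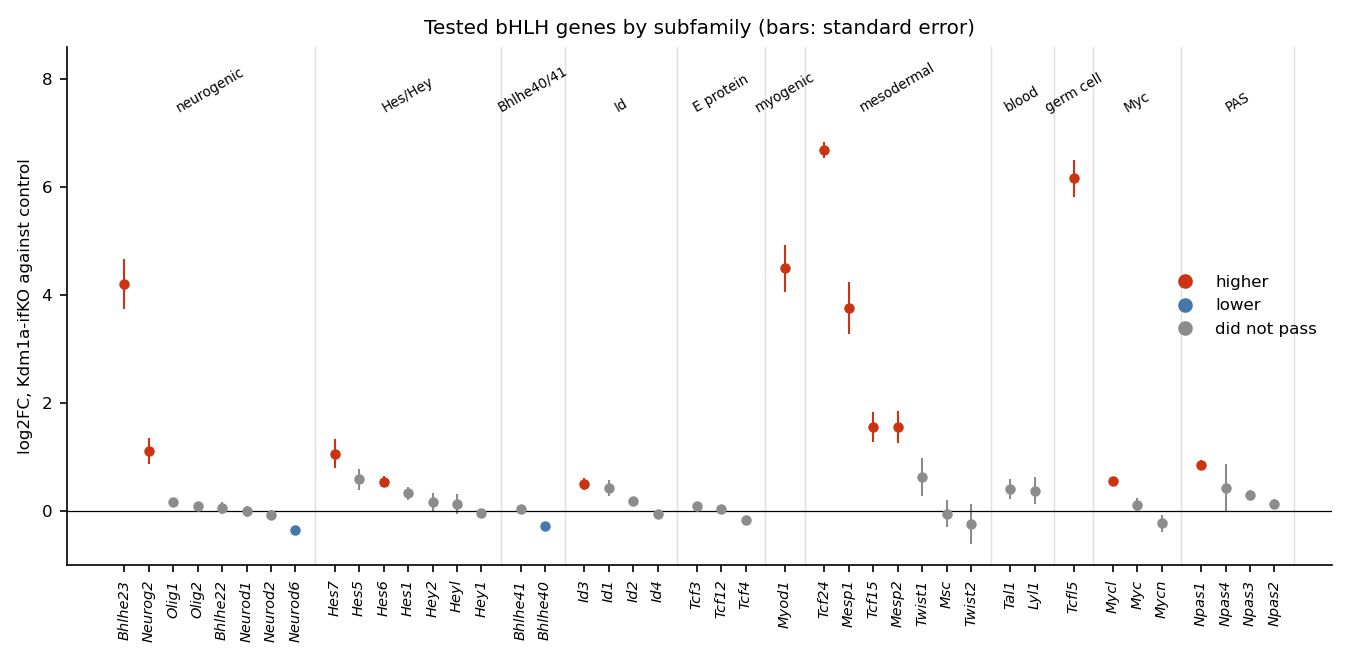
Log2 fold change of the 42 tested bHLH genes in Kdm1a-ifKOs against controls (vertical axis; bars, standard error derived from the F statistic), ordered by subfamily. Red points were called higher, blue points lower and grey points did not pass. Called points over a log2FC of 1 lie in the neurogenic, Hes/Hey, myogenic, mesodermal and germ cell groups. Of these points, Myod1, Tcfl5, Bhlhe23, Tcf24 and Mesp1 passed the filter only through the Kdm1a-ifKO libraries, so their place follows in part from the filter. Myod1 and Tcfl5 are the only tested genes of their groups.

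Markers of the neurons of the tissue were examined as lists, each described by its calls, its summed CPM and its most abundant gene. Of the 5 markers of dentate granule cells, C1ql2 was higher (log2FC 0.55, adjusted p = 0.0264) and 0 were lower, with a median log2FC of 0.14 against -0.0034 over all tested genes, with a sum of 431, 411 and 443 CPM in the controls and 501, 429 and 465 CPM in the Kdm1a-ifKOs and Calb1 as the most abundant. The groups overlapped in this sum, while without Calb1 the list summed to 311, 276 and 301 CPM in the controls and 373, 318 and 348 CPM in the Kdm1a-ifKOs, without overlap. The call of C1ql2 was lost without control replicate 1 or Kdm1a-ifKO replicate 1 or 3 (adjusted p up to 0.118). The 5 markers of CA pyramidal cells had 0 calls in edgeR and in DESeq2 and 1 gene with an unadjusted p under 0.05 (median 0.061), with a sum of 794, 750.4 and 709.95 CPM in the controls and 799, 789.8 and 743 CPM in the Kdm1a-ifKOs and Mpped1 as the most abundant.

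Of the 5 markers of newborn neurons, 4 were tested, and Igfbpl1 was higher (log2FC 1.20, adjusted p = 0.0235), with a list median of 0.23. Their sum was 73.0, 81.4 and 81.0 CPM in the controls and 80.9, 81.2 and 91.5 CPM in the Kdm1a-ifKOs, with Calb2 as the most abundant. The call of Igfbpl1 was lost without control replicate 2 or 3 or Kdm1a-ifKO replicate 3 (adjusted p up to 0.102). Among the 6 interneuron markers, Vip was lower (log2FC -0.46, adjusted p = 0.0122; 0.0630 at most without Kdm1a-ifKO replicate 1 or 3, when the call was lost) and 0 were higher (median -0.13). This list summed to 824, 878 and 808 CPM in the controls and 814, 785 and 783 CPM in the Kdm1a-ifKOs, led by Gad1, with overlap. Without Gad1 the sum was 461, 474 and 446 CPM in the controls and 438, 445 and 439.9 CPM in the Kdm1a-ifKOs, with every Kdm1a-ifKO library under the lowest control. Every marker of these lists had counts, and the part of these neurons in the values of Neurog2 and Neurod6 was not tested.

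The 8 Hes/Hey genes encode repressors that act mostly downstream of Notch, and 7 were tested, of which 2 were higher and 0 lower in edgeR's quasi-likelihood test (4 higher and 0 lower at an unadjusted p under 0.05, and 1 higher with DESeq2). Hey1 was the most abundant in controls at 56.9 ± 3.21 TPM. It had 938, 838 and 877 counts in the controls and 897, 893 and 868 in the Kdm1a-ifKOs, or 46.7 ± 2.55 and 45.3 ± 0.776 CPM (SD, n = 3 each; log2FC -0.043, standard error 0.0613, adjusted p = 0.717), and the groups overlapped. Hes6 (ENSMUSG00000067071, chr1:91411483-91414038, minus strand) differs from the rest in that it favours neuronal differentiation and counters Hes1. It had 192, 176 and 180 counts in the controls and 295, 269 and 262 in the Kdm1a-ifKOs, without overlap. The level rose from 9.65 ± 0.400 to 14.1 ± 0.937 CPM (SD, n = 3 each; log2FC 0.55, standard error 0.0967, adjusted p = 0.00320).

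Hes7 (ENSMUSG00000023781, chr11:69120404-69124055, plus strand), an oscillating factor of the clock that sets the segments of the embryo, had 15, 18 and 15 counts in the controls and 44, 28 and 32 in the Kdm1a-ifKOs. The groups did not overlap, with 0.845 ± 0.0872 against 1.78 ± 0.436 CPM (SD, n = 3 each; log2FC 1.06, standard error 0.272, adjusted p = 0.0274). The call did not hold with 1 library left out except Kdm1a-ifKO replicate 2. The adjusted p was 0.126 without Kdm1a-ifKO replicate 1, 0.0597 without Kdm1a-ifKO replicate 3, 0.0731 without control replicate 1, 0.0526 without control replicate 2 and 0.0660 without control replicate 3, and it was 0.0968 in DESeq2. Hes7 overlaps 9130213A22Rik on the opposite strand, which had 20, 18 and 17 counts against 22, 28 and 22 (log2FC 0.34, adjusted p = 0.458). The strand setting of the counting is not stated, so reads from Hes7 and from this partner cannot be told apart.

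Of the other Hes/Hey genes, Hes1 and Hes5, the classical effectors of Notch in neural stem cells and astrocytes, had every Kdm1a-ifKO library above every control without being called. Hes1 had 227, 167 and 196 counts against 255, 260 and 249 (log2FC 0.33, adjusted p = 0.0926, or 0.0413 without control replicate 1 and up to 0.307 without another library). Hes5 had 56, 67 and 38 counts against 83, 78 and 89 (log2FC 0.59, adjusted p = 0.0826, or 0.0482 without control replicate 2 and up to 0.230 without another library). Hey2 and Heyl, expressed in vessels, had a log2FC of 0.16 and 0.13, and Hes3 had 1 count in each control library and 0 in each Kdm1a-ifKO library, too few to compare.

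The Notch pathway upstream of these repressors was given by 16 genes, all tested. Of these, 2 were higher and 0 lower (median log2FC 0.16 against -0.0034 over all tested genes). Dll3, an atypical ligand that inhibits Notch signalling, had 31, 26 and 26 counts against 65, 49 and 52 (log2FC 0.95, adjusted p = 0.0132), and its adjusted p was 0.0652 without Kdm1a-ifKO replicate 1. Jag2, a ligand, had a log2FC of 0.23 (adjusted p = 0.0482), and this call was lost with any of the 6 libraries left out (adjusted p from 0.0611 to 0.173). Among the Groucho corepressors, 7 names matched 6 genes (Tle5 is listed as Aes), and 0 of the 6 were called by edgeR or DESeq2 or had an unadjusted p under 0.05 (median -0.066).

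Bhlhe40 and Bhlhe41 repress E-box genes, among them targets of the circadian clock, and Bhlhe40 also responds to neuronal activity. Bhlhe40 (ENSMUSG00000030103, chr6:108660629-108666925, plus strand) had 2807, 2530 and 2582 counts in the controls and 2289, 2193 and 2238 in the Kdm1a-ifKOs. It fell from 139 ± 7.01 to 115 ± 3.19 CPM (SD, n = 3 each; log2FC -0.28, standard error 0.0541, adjusted p = 0.00547), with every Kdm1a-ifKO library under the lowest control. Its antisense neighbour 0610040F04Rik overlaps it and had 20, 20 and 16 counts against 16, 16 and 14 (log2FC -0.33, adjusted p = 0.517), and without strand information reads of the overlap cannot be told apart. Bhlhe41 had 624, 594 and 546 counts against 615, 598 and 655, a log2FC of 0.037, and was not called.

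Of the 17 genes of the circadian clock, all tested, 2 were higher and 0 lower (median log2FC 0.052), and DESeq2 called 3 higher and 2 lower. Per3 had a log2FC of 0.31 (adjusted p = 0.0116, or 0.0526 without Kdm1a-ifKO replicate 3). Dbp, an output gene of the clock, also had a log2FC of 0.31 (adjusted p = 0.0350), and its call was lost without control replicate 1, 2 or 3 or Kdm1a-ifKO replicate 2 (adjusted p up to 0.123). The hour of collection is not given in the sources used here, and its part in these values was not tested.

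The 4 Id genes, which encode inhibitors without a basic region, were all tested, with 1 higher and 0 lower in edgeR's quasi-likelihood test (3 higher and 0 lower at an unadjusted p under 0.05, 1 higher with DESeq2). Id2 was the most abundant at 95.7 ± 5.87 TPM in controls. It had 1144, 1041 and 1148 counts in the controls and 1228, 1338 and 1348 in the Kdm1a-ifKOs, or 58.7 ± 3.65 and 66.8 ± 3.20 CPM (SD, n = 3 each; log2FC 0.19, standard error 0.0636, adjusted p = 0.0901). Its groups did not overlap, and with 1 library left out it passed without control replicate 3 alone (adjusted p = 0.0476). Id3 (ENSMUSG00000007872, chr4:136143497-136145755, plus strand), which is prominent in endothelial cells and astrocytes, had 532, 431 and 412 counts in the controls and 575, 743 and 685 in the Kdm1a-ifKOs. The groups were close but did not overlap, and Id3 rose from 24.2 ± 3.15 to 34.2 ± 4.17 CPM (SD, n = 3 each; log2FC 0.50, standard error 0.1097, adjusted p = 0.0197). The call was lost without Kdm1a-ifKO replicate 3 (adjusted p = 0.0869), without control replicate 2 (0.0647) and without control replicate 3 (0.0613). Id1 had 180, 125 and 131 counts against 173, 218 and 214 (log2FC 0.43, adjusted p = 0.0931, or 0.0251 without control replicate 1 and up to 0.267 without another library), with overlapping groups. Id4 had a log2FC of -0.048.

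Id1, Id2 and Id3 are textbook targets of BMP signalling through Smad proteins. Of 23 listed genes of that pathway, 22 were tested, with 3 higher and 0 lower (median log2FC 0.10; 5 higher and 2 lower at an unadjusted p under 0.05, 3 and 1 with DESeq2). The ligand Bmp8a had 0, 1 and 1 counts in the controls and 52, 45 and 44 in the Kdm1a-ifKOs, a ratio of 68.3 (95% interval 18.6 to 569) and a fitted log2FC of 5.85 (adjusted p = 2.72e-06). The ligand Bmp8b had 4, 3 and 8 counts in the controls and 67, 73 and 57 in the Kdm1a-ifKOs (log2FC 3.64, adjusted p = 6.28e-06). The groups did not overlap in either gene, but both passed the filter only through the Kdm1a-ifKO libraries. Chrd, an extracellular BMP antagonist, rose from 146 ± 3.46 to 187 ± 10.8 CPM (SD, n = 3 each; log2FC 0.35, adjusted p = 0.00130).

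Because Id and Hes genes are abundant in glia and vessels, markers of these cells stand beside them. Of the 6 astrocyte markers, 2 were higher (median log2FC 0.15), Slc1a3 (0.22, adjusted p = 0.0161) and Aldoc (0.20, adjusted p = 0.0258). The sum of this list was 2584, 2434 and 2549.6 CPM in the controls and 2829, 2908 and 3070.1 CPM in the Kdm1a-ifKOs, without overlap, and Aldoc was the most abundant. Slc1a3 lost its call without control replicate 1 or 2 or Kdm1a-ifKO replicate 1 or 3 (adjusted p up to 0.0960), and Aldoc without control replicate 2 or any of the Kdm1a-ifKO libraries (up to 0.170). Of the 6 microglia markers, 3 were higher (median 0.30), Tmem119 (0.42, adjusted p = 0.0462), Csf1r (0.33, adjusted p = 0.0377) and Cx3cr1 (0.27, adjusted p = 0.0208). Their sum was 247, 235 and 258 CPM in the controls and 269.9, 308 and 335 CPM in the Kdm1a-ifKOs, again without overlap, and Csf1r was the most abundant. All 3 lost the call without control replicate 1 or 2 or Kdm1a-ifKO replicate 3, Tmem119 and Csf1r also without control replicate 3, and Csf1r and Cx3cr1 also without Kdm1a-ifKO replicate 2 (adjusted p up to 0.120).

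The 6 endothelial markers had 0 calls in edgeR and DESeq2 and 0 genes with an unadjusted p under 0.05 (median 0.078), with a sum of 192, 192 and 195 CPM in the controls and 184, 229.8 and 197 CPM in the Kdm1a-ifKOs and Flt1 as the most abundant. Kdm1a-ifKO replicate 2 was the highest library of this list, as it was for Id3. Of the 8 markers of mural cells and fibroblasts, Pdgfrb was higher (log2FC 0.39, adjusted p = 0.00490) and 0 were lower (median 0.19). Their sum was 291, 298 and 301 CPM in the controls and 297, 386 and 266 CPM in the Kdm1a-ifKOs, led by Rgs5, with Kdm1a-ifKO replicate 2 again highest. The 7 oligodendrocyte markers had 0 calls in edgeR and DESeq2 and 0 genes with an unadjusted p under 0.05 (median 0.018), summing to 5759, 5215 and 5452 CPM in the controls and 4848, 6062 and 6307 CPM in the Kdm1a-ifKOs, with Mbp as the most abundant. The 5 markers of oligodendrocyte precursors had 0 calls with either tool and 1 gene with an unadjusted p under 0.05 (median -0.010), summing to 316, 296 and 315 CPM in the controls and 283, 326 and 344 CPM in the Kdm1a-ifKOs, with Bcas1 as the most abundant. In both oligodendrocyte lists Kdm1a-ifKO replicate 1 was the lowest library. The part of glia and vessels in the values of Id3, Hes1 and Hes5 was not tested.

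**Figure D4:**
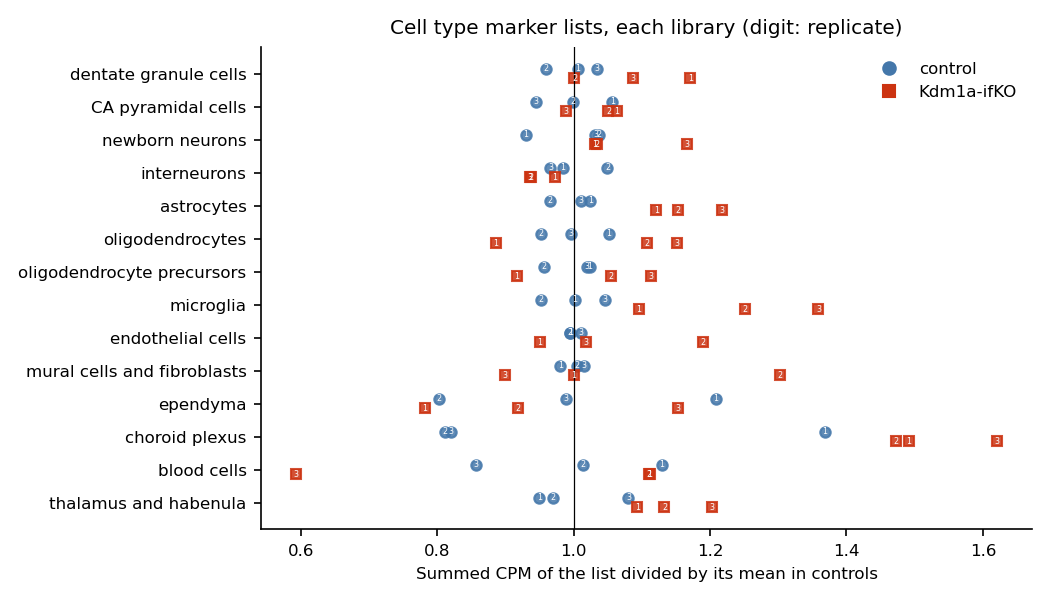
Summed CPM of the 14 lists of cell type markers, each divided by its mean in the controls (horizontal axis), for each library (circles, controls; squares, Kdm1a-ifKOs; digits, replicate). All Kdm1a-ifKO libraries lie above all controls for astrocytes, microglia, choroid plexus and thalamus, where the last 2 sums overlap without Kl and Prkcd.

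The E proteins Tcf3, Tcf4 and Tcf12 are the common partners of tissue-specific bHLH factors. None of the 3 was called with edgeR or DESeq2, and 1 had an unadjusted p under 0.05. Tcf4, the most abundant at 68.3 ± 7.70 TPM in controls, had 8532, 8253 and 9931 counts in the controls and 8225, 8304 and 8137 in the Kdm1a-ifKOs. These correspond to 471 ± 54.6 and 421 ± 2.64 CPM (SD, n = 3 each; log2FC -0.16, standard error 0.0708, adjusted p = 0.182). In CPM the Kdm1a-ifKO libraries lay under the lowest control, while the raw counts overlapped, and control replicate 3 stood apart at the top. Tcf3 and Tcf12 had a log2FC of 0.089 and 0.029.

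Myogenic factors turn cells toward skeletal muscle and are not part of the normal program of neurons. Of the 4, Myod1 alone passed the filter. Myod1 (ENSMUSG00000009471, chr7:46376474-46379099, plus strand), which can convert other cells to muscle, had 1, 1 and 3 counts in the controls and 44, 32 and 49 in the Kdm1a-ifKOs. Every Kdm1a-ifKO library was far above the highest control, a ratio of 24.2 (95% interval 10.1 to 75.9) and a fitted log2FC of 4.50 (standard error 0.432, adjusted p = 1.78e-05), or 5.19 without control replicate 3. The level in Kdm1a-ifKOs was low all the same, at 2.13 ± 0.459 CPM against 0.0887 ± 0.0628 CPM in controls (SD, n = 3 each). Myog, which acts after Myod1 in muscle differentiation and had the highest control level of the group at 0.281 TPM, had 1, 3 and 2 counts against 3, 3 and 2, with overlap. Myf6 had 1 count in control replicate 3 and Myf5 had 0 in all libraries.

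Of 21 listed genes of the muscle program, 14 were tested, with 0 higher and 1 lower (median log2FC 0.13; 3 higher and 2 lower at an unadjusted p under 0.05, and 0 higher and 1 lower with DESeq2). The lower gene was Mef2c (log2FC -0.33, adjusted p = 0.0332), which encodes a partner of myogenic factors and is itself abundant in neurons. Its call was lost without control replicate 1, 2 or 3 or Kdm1a-ifKO replicate 1 or 3 (adjusted p up to 0.139). Chrnd and Tnnc2 had 0 counts in all libraries.

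Of the 11 mesodermal factors, 7 were tested, with 4 higher and 0 lower (4 higher and 0 lower also at an unadjusted p under 0.05 and with DESeq2). The shares over all tested genes were 6.04% higher and 2.82% lower. Of the 3 that passed the filter through the controls, 1 was higher, Tcf15. Tcf24 (ENSMUSG00000099032, chr1:9960163-9967932, minus strand), a little studied relative of Tcf21 and Tcf23, had 8, 6 and 8 counts in the controls and 839, 738 and 811 in the Kdm1a-ifKOs. It rose from 0.388 ± 0.0633 to 40.7 ± 2.94 CPM (SD, n = 3 each; log2FC 6.69, standard error 0.143, adjusted p = 8.80e-12). Its relatives had values of another kind, since Tcf23 had 9, 3 and 6 counts against 10, 9 and 3 and Tcf21 had 0. On the scale of transcripts, Tcf24 in Kdm1a-ifKOs reached 38.8 ± 2.54 TPM, close to the 40.7 TPM of Mycl in controls. Tcf24 overlaps E330040D14Rik on the opposite strand, which had 0 counts in the controls and 13 in the Kdm1a-ifKOs. This is 4.20-fold if the control group is set to 3 counts, without an allowance for counting error in the 13. Here too reads of the overlap cannot be told apart.

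Tcf15 (ENSMUSG00000068079, chr2:152143561-152149097, plus strand), a factor of somites that is also known from endothelial cells, had the highest mean TPM of the mesodermal members in controls, at 3.14 ± 0.997 TPM. Its control libraries (2.34 to 4.26 TPM) overlapped those of Msc (2.29 to 2.79) and Twist1 (1.02 to 3.46), and in CPM both stood above it. Tcf15 had 20, 11 and 13 counts in the controls and 45, 37 and 53 in the Kdm1a-ifKOs, without overlap. The level rose from 0.774 ± 0.243 to 2.30 ± 0.422 CPM (SD, n = 3 each; log2FC 1.56, standard error 0.276, adjusted p = 0.00309). Twist1, a regulator of mesenchyme, had 27, 8 and 21 counts against 30, 36 and 24 (log2FC 0.63, adjusted p = 0.302), with overlap through control replicate 1. Msc and Twist2 had a log2FC of -0.046 and -0.25, and Hand1 and Hand2, factors of the heart, had 0 counts.

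Mesp1 and Mesp2 lie 16.9 kb apart on chromosome 7 and mark the early mesoderm, Mesp1 that of the heart and Mesp2 that of the somites. Mesp1 (ENSMUSG00000030544, chr7:79792241-79793788, minus strand) had 5, 0 and 2 counts in the controls and 33, 31 and 39 in the Kdm1a-ifKOs, a ratio of 14.3 (95% interval 6.67 to 36.3) and a fitted log2FC of 3.76 (standard error 0.489, adjusted p = 2.94e-04), or 4.89 without control replicate 1. Mesp2 (ENSMUSG00000030543, chr7:79810727-79813439, plus strand) had 13, 13 and 8 counts in the controls and 38, 40 and 26 in the Kdm1a-ifKOs. It rose from 0.597 ± 0.145 to 1.77 ± 0.381 CPM (SD, n = 3 each; log2FC 1.56, standard error 0.299, adjusted p = 0.00559). Neither gene had overlapping groups, and for Mesp1 the means were 0.123 ± 0.131 against 1.76 ± 0.221 CPM (SD, n = 3 each).

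Factors of blood development were not called. Of the 3, Lyl1 and Tal1 were tested, with 0 genes at an unadjusted p under 0.05 and 0 with DESeq2. Lyl1, the most abundant at 4.01 ± 0.477 TPM in controls, had 30, 38 and 35 counts in the controls and 35, 64 and 39 in the Kdm1a-ifKOs, or 1.81 ± 0.221 and 2.35 ± 0.785 CPM (SD, n = 3 each; log2FC 0.37, standard error 0.251, adjusted p = 0.392), with overlap. Tal1, which like Lyl1 is also a gene of endothelial cells, had 44, 45 and 45 counts against 52, 60 and 71 (log2FC 0.40, adjusted p = 0.205), without overlap. Tal2 had 24 counts in all.

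The 2 genes of germ cells parted. Tcfl5 (ENSMUSG00000038932, chr2:180621956-180642708, minus strand), known for its role in spermatogenesis, had 0, 4 and 2 counts in the controls and 155, 151 and 167 in the Kdm1a-ifKOs. This is a ratio of 76.4 (95% interval 34.8 to 209) and a fitted log2FC of 6.17 (standard error 0.341, adjusted p = 9.85e-08), or 7.08 without control replicate 2, with 8.07 ± 0.463 CPM in Kdm1a-ifKOs against 0.106 ± 0.105 CPM in controls (SD, n = 3 each) and no overlap. Figla, a factor of oocytes, had 0, 0 and 2 counts against 0, 0 and 0. In controls it had 0.170 ± 0.294 TPM against 0.133 ± 0.132 TPM for Tcfl5 (SD, n = 3 each). This order rests on 2 counts in 1 library, and in CPM Tcfl5 was the higher. Tcfl5 overlaps the end of Col9a3 on the opposite strand, which had 256, 247 and 194 counts against 254, 245 and 333 (log2FC 0.21, adjusted p = 0.376), so that reads in the overlap cannot be told apart.

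Promoters are shown for Tcfl5 and Bhlhe23, which lie 132 kb apart on chromosome 2 and were both called higher, and for Mesp2, whose neighbour Mesp1 was called too. The 250 bases before each start are those of RefSeq (GRCm38.p6), written 5′ to 3′ on the strand of the gene, with E-boxes (CANNTG, which reads the same on both strands) in capitals. They cover chr2:180642692-180642941 (minus strand) for Tcfl5, chr2:180776901-180777150 (minus strand) for Bhlhe23 and chr7:79810477-79810726 (plus strand) for Mesp2.
Tcfl5: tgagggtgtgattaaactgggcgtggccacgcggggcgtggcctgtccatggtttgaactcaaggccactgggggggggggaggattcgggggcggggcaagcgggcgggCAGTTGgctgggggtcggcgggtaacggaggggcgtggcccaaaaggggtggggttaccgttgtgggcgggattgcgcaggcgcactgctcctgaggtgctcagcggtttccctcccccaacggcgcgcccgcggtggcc
Bhlhe23: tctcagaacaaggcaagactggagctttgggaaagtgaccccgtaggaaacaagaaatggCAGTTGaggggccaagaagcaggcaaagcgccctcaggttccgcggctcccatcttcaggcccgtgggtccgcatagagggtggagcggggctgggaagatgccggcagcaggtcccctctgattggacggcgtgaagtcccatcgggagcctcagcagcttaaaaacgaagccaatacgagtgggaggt
Mesp2: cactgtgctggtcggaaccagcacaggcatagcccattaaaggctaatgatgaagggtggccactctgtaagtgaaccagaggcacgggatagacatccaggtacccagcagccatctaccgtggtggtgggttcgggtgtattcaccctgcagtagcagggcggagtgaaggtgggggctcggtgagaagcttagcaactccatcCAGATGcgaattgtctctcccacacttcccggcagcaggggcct

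Each of the 3 windows held 1 E-box. In Tcfl5 and in Bhlhe23 it was the word CAGTTG, beginning at -140 and at -190 from the start, and in Mesp2 it was CAGATG at -44. The windows held 22, 13 and 8 CpG pairs. Of the 59 members, 43 were found in the RefSeq table, among them 10 of the 13 called higher and 1 of the 2 called lower. The called members not found there were Tcf24, Myod1, Tcf15 and Bhlhe40. An E-box lay in 29 of the 43 windows (67.4%), against 66.2% of all 32851 promoters, and in 7 of the 10 of higher members. The N-box bound by Hes proteins (CACNAG on either strand) was found in 9 of the 43 windows (20.9%), against 36.7% of all promoters. The median number of CpG pairs was 14 over the 43 members and 6 over all promoters. It was 12.5 for members called higher, 20 for those not called and 10 for those below the filter. A word in a window is a description of the sequence and not a site of binding.

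Among the Myc genes, which drive growth and proliferation, 1 of 3 was higher and 0 lower in edgeR's quasi-likelihood test (the same counts at an unadjusted p under 0.05 and with DESeq2). Mycl (ENSMUSG00000028654, chr4:122995652-123002485, plus strand), the most abundant at 40.7 ± 1.75 TPM in controls, had 823, 756 and 767 counts in the controls and 1287, 1094 and 1183 in the Kdm1a-ifKOs. The groups did not overlap, and Mycl rose from 41.3 ± 1.68 to 60.8 ± 5.32 CPM (SD, n = 3 each; log2FC 0.56, standard error 0.0708, adjusted p = 2.37e-04). Myc and Mycn had 8.14 and 8.77 TPM in controls and a log2FC of 0.11 and -0.23, both not called. Mycl lies on chromosome 4 in the neighbourhood of Bmp8b (103 kb away), Heyl (231 kb) and Bmp8a (310.2 kb), of which Heyl was not called.

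The PAS factors were all tested, with 1 higher and 0 lower of 4 in edgeR's quasi-likelihood test (2 higher and 0 lower at an unadjusted p under 0.05, 1 higher with DESeq2). Npas1 (ENSMUSG00000001988, chr7:16455721-16477728, minus strand), a repressor expressed in interneurons, had 333, 316 and 294 counts in the controls and 628, 502 and 624 in the Kdm1a-ifKOs. It rose from 16.6 ± 0.807 to 29.9 ± 3.86 CPM (SD, n = 3 each; log2FC 0.85, standard error 0.0962, adjusted p = 9.60e-05), without overlap. The part of interneurons in this value was not tested. Npas1 overlaps the ribosomal RNA gene n-R5s151, which had 0 counts. Npas2, a partner of the clock that can stand in for Clock, was the most abundant in controls at 24.9 ± 1.179 TPM. It had 596, 576 and 532 counts in the controls and 602, 760 and 562 in the Kdm1a-ifKOs, or 30.0 ± 1.31 and 32.8 ± 5.12 CPM (SD, n = 3 each; log2FC 0.13, standard error 0.0990, adjusted p = 0.464), with overlap.

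Npas3, a factor of neurogenesis, had 231, 253 and 218 counts against 288, 291 and 313 (log2FC 0.30, adjusted p = 0.0589), without overlap. Npas4, which neurons induce upon activity, had 439, 383 and 359 counts in the controls and 403, 897 and 349 in the Kdm1a-ifKOs (log2FC 0.43, standard error 0.433, adjusted p = 0.619). Kdm1a-ifKO replicate 2 alone was high, and the log2FC lay between -0.11 and 0.67 with 1 library left out. Of the 16 activity-induced genes, all tested, 0 were higher and 2 lower (median log2FC -0.067; 2 higher and 3 lower at an unadjusted p under 0.05 and also with DESeq2). These were Nr4a3 (-0.36, adjusted p = 0.00671) and Bdnf (-0.25, adjusted p = 0.0273, lost without control replicate 1 or 3 or Kdm1a-ifKO replicate 1 or 2, with an adjusted p up to 0.0929). The sum of this list was 1179.8, 886 and 893 CPM in the controls and 781, 923 and 851 CPM in the Kdm1a-ifKOs, led by Arc, and control replicate 1 was the highest library.

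Outside the 59 members, 49 further bHLH genes were listed, and 36 were tested with 2 higher and 2 lower (median log2FC 0.043). Srebf1, which controls lipid synthesis, was higher (0.33, adjusted p = 0.00193) in every alternative fit that left out 1 library. Arnt2, a common partner of PAS factors, had a log2FC of 0.18 (adjusted p = 0.0489), and its call was lost with any of the 6 libraries left out (adjusted p from 0.0632 to 0.159). The lower genes were Ahr, the dioxin receptor (-0.40, adjusted p = 0.0444), and Hif1a, the hypoxia factor (-0.26, adjusted p = 0.0260). Both lost the call without control replicate 2 or 3 or Kdm1a-ifKO replicate 1 or 3 (adjusted p up to 0.153 and 0.119). Ptf1a, Hes2 and Sohlh1 had 0 counts in all libraries.

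Tissue next to the hippocampus and blood were examined by 4 more lists. The 5 ependyma markers had 0 calls with edgeR and DESeq2 and 0 genes with an unadjusted p under 0.05 (median -0.29), summing to 27.2, 18.1 and 22.2 CPM in the controls and 17.6, 20.7 and 25.9 CPM in the Kdm1a-ifKOs, led by Foxj1. Of the 5 markers of the choroid plexus, 4 were tested, and Kl was higher (log2FC 1.28, adjusted p = 1.32e-07) with 0 lower (median -0.37). Their sum was 60.1, 35.6 and 36.0 CPM in the controls and 65.5, 64.7 and 71.2 CPM in the Kdm1a-ifKOs, with Kl, which neurons express as well, as the most abundant. Without Kl, the other markers of this list summed to 36.3, 13.2 and 9.14 CPM in the controls and 4.94, 8.27 and 11.1 CPM in the Kdm1a-ifKOs, with overlap and a high control replicate 1. The 5 genes of blood cells had 0 calls with either tool and 1 gene with an unadjusted p under 0.05 (median -0.14), summing to 44.2, 39.6 and 33.5 CPM in the controls and 43.5, 43.5 and 23.2 CPM in the Kdm1a-ifKOs, led by Hbb-bs. Of the 6 markers of thalamus and habenula, 5 were tested, and Prkcd was higher (log2FC 0.57, adjusted p = 0.00186) with 0 lower (median 0.17). This list summed to 86.5, 88.4 and 98.4 CPM in the controls and 99.6, 103 and 109.6 CPM in the Kdm1a-ifKOs, led by Prkcd, and without Prkcd to 50.8, 57.8 and 65.8 CPM in the controls and 53.2, 58.3 and 53.7 CPM in the Kdm1a-ifKOs, with overlap. All of these markers had counts, and the part of such tissue in the values of the members was not tested.

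The surroundings of the 15 called members were compared through the nearest tested gene on either side. Of these 30 neighbours, 5 were higher (6.04% of all tested genes) and 0 lower (2.82%) in edgeR's quasi-likelihood test (7 higher and 2 lower at an unadjusted p under 0.05, 5 and 1 with DESeq2). Mesp1 and Mesp2, called members themselves, count for each other, so that 3 of the 28 neighbours that are not members were higher. Beside Id3, E2f2, a cell cycle factor 26.6 kb away, had 35, 36 and 33 counts against 82, 75 and 67 (log2FC 1.06, adjusted p = 0.00240), while Rpl11 on the other side had a log2FC of 0.17. Beside Hes7, Aloxe3 at 1.84 kb, an epidermal lipoxygenase, had 300, 394 and 338 counts against 467, 487 and 438 (log2FC 0.39, adjusted p = 0.0251). This call was lost without control replicate 1 or Kdm1a-ifKO replicate 1 or 2 (adjusted p up to 0.0845). Per1, on the other side of Hes7, had a log2FC of -0.33 (adjusted p = 0.0886, or 0.00350 without Kdm1a-ifKO replicate 3 and up to 0.301 without another library). Beside Myod1, Abcc8 at 196 kb had a log2FC of 0.29 (adjusted p = 0.0218, lost without control replicate 2 or 3 or Kdm1a-ifKO replicate 1 or 3, with an adjusted p up to 0.112), and Kcnc1 at 17.4 kb, a potassium channel, had a log2FC of -0.019.

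The remaining neighbours were not called, also where they were close. Ppp1r42 lies 0.692 kb from Tcf24 and had 10, 11 and 13 counts against 10, 13 and 12 (log2FC -0.0050, adjusted p = 0.997), and Snhg6 on the other side had -0.067. Tmem160 lies 0.227 kb from Npas1 (log2FC 0.17, adjusted p = 0.331), with Arhgap35 on the other side (-0.0030). Per2 lies 1.94 kb from Hes6 (log2FC 0.052), with Ilkap beyond (-0.014). Tcfl5 stood between Ogfr (0.12) and Dido1 (-0.14), and Bhlhe23 between Slc17a9 (0.44, adjusted p = 0.584) and Gm27032 (-0.046). The Mesp pair was flanked by Wdr93 (-0.0024) and Anpep (0.34, adjusted p = 0.666). Neurog2 was flanked by Zgrf1 (-0.22) and Alpk1 (-0.31), Tcf15 by Srxn1 (0.097) and Rps15a-ps7 (0.29), and Mycl by Mfsd2a (0.15) and Trit1 (0.013). The lower members Neurod6 and Bhlhe40 stood between Adcyap1r1 (0.16) and Itprid1 (-0.39), and between Gm17055 (-0.11) and Arl8b (-0.14).

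CTCF loops from ChIA-PET, which captures pairs of distant sites held by CTCF, were available from 1 library of sorted hippocampal nuclei of principal neurons, without a replicate. These nuclei came from another cross, Camk2a-creERT2 with the nuclear tag CAG-Sun1/sfGFP and no floxed Kdm1a stated, at 12 weeks of age and 1 month after tamoxifen, so that they carry the recombinase that the RNA controls lack. The 27786 loops had between 3 and 1242 paired-end tags (PETs), with a median of 5. A loop anchor lay within 10 kb of 31 of the 59 members (52.5%) and of 27 of the 42 tested ones (64.3%), where the share over all tested genes was 56.9%. Of the 13 higher members 8 had such an anchor (61.5%), against 71.6% of all genes called higher. For the tested members the share was above that of all tested genes in every setting. It was 64.3% against 48.3% at 5 PETs or more, 45.2% against 35.4% at 10 PETs or more and 76.2% against 68.5% within 25 kb. With anchors overlapping the gene body it was 47.6% against 39.5%. For all members, which include those below the filter, the direction turned, with 52.5% against 48.3% at 5 PETs or more. For the higher members it turned too, with 7 of 13 against 50.7% at 10 PETs or more and 84.6% against 82.5% within 25 kb. In all, 157 loops with 2455 PETs had an anchor at a member. There was no anchor within 10 kb of Tcf24, Tcfl5, Tcf15, Hes6, Id3 or Neurod6.

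The called members differed in their loops. Myod1 had 6 loops with 238 PETs, the strongest of 150 PETs spanning 214 kb to Sergef and the next of 60 PETs spanning 97.6 kb to an anchor without a tested gene. The nearer anchor of the strongest loop lay beyond the end of Myod1 and reached into Kcnc1, which was not called. Npas1 had 9 loops with 116 PETs, the strongest of 42 PETs spanning 68.2 kb to Sae1 and Zc3h4. Bhlhe23 had 10 loops with 59 PETs, and 3 of these, with 3 or 4 PETs each and spans from 198 to 200.3 kb, held the whole of Tcfl5 between their anchors. Mesp1 and Mesp2 shared a loop of 27 PETs over 115 kb, whose nearer anchor lay between both genes and which enclosed Mesp2. Mycl had 6 loops with 29 PETs, Neurog2 4 loops with 40 PETs and Bhlhe40 3 loops with 16 PETs.

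Hes7 had 8 loops with 72 PETs and was the only called member with called genes near the other anchor of its loops. Its strongest loop, of 39 PETs over 54.9 kb, ended near 3 tested genes, of which 9330160F10Rik and Tmem107 were not called and Borcs6, a subunit of a complex that positions lysosomes, was. Borcs6 had 349, 317 and 339 counts in the controls and 536, 551 and 560 in the Kdm1a-ifKOs (log2FC 0.67, standard error 0.0728, adjusted p = 6.20e-05), without overlap. Other loops ended near Aloxe3 or Alox12b, another epidermal lipoxygenase. Since Aloxe3 lies 1.84 kb from Hes7, within the distance allowed for an anchor, some of the anchors counted for Hes7 lay inside Aloxe3, and 2 of the loops had both anchors within 10 kb of Hes7, so these loops follow in part from that closeness. Alox12b had 205, 219 and 225 counts in the controls and 367, 307 and 472 in the Kdm1a-ifKOs (log2FC 0.77, standard error 0.148, adjusted p = 0.0111), without overlap, and kept its call with any library left out (adjusted p at most 0.0451). Whether loops at these genes differ in Kdm1a-ifKOs was not measured by this assay.

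**Figure D5:**
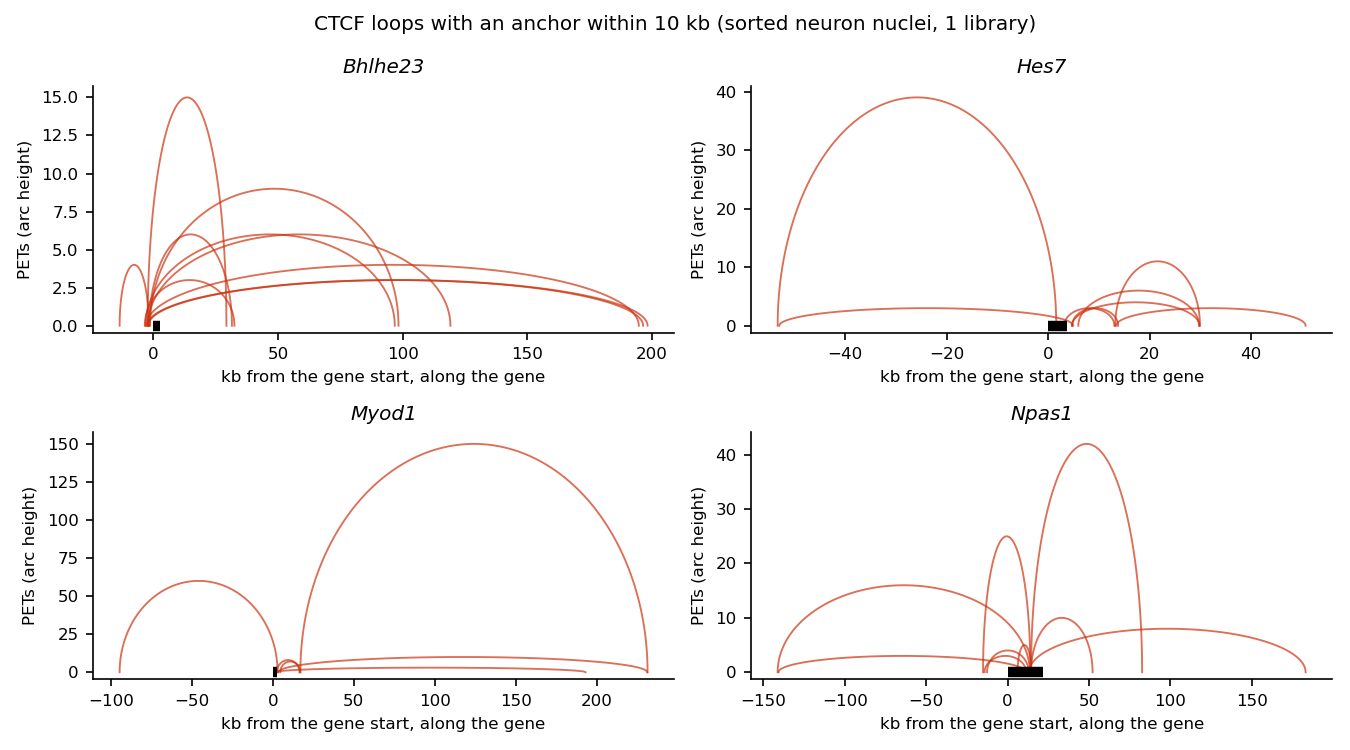
CTCF loops with an anchor within 10 kb of Bhlhe23, Hes7, Myod1 and Npas1 in sorted nuclei of principal neurons (1 library), with the distance from the gene start along the gene in kb on the horizontal axis and PETs as arc height. Each arc joins the midpoints of the anchors of 1 loop and the black bar is the gene; the arc of 150 PETs at Myod1 is the strongest.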

How the data were processed

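RNA-seq counts per Ensembl gene were deposited by the authors for 6 hippocampal libraries, 1 per mouse (3 controls, 3 Kdm1a-ifKOs), from single-end poly-A reads trimmed with cutadapt 1.18, aligned with HISAT2 2.1.0 to mm10, filtered (mapping quality over 30, nuclear chromosomes) and counted with HTSeq 0.11.1, with no strand setting stated. Loops were deposited as counts of paired-end tags, made by the authors with ChIA-PIPE from 1 library. The 6 libraries held between 18985542 and 19469947 counts. Within groups, the chi-square per degree of freedom between replicates was 3.11 to 8.23.

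Genes were tested in R 4.3.3 with edgeR 4.0.16 (limma 3.58.1; filterByExpr with a minimum count of 10 and a minimum total of 15, TMM factors, a design with genotype alone, robust quasi-likelihood F test, Benjamini-Hochberg over 16799 genes). Alternatives were DESeq2 1.42.0, its size factors in edgeR, upper-quartile factors, no filter, at least 10 counts in all, a block for the replicate number, and each library left out. Tables were made in Python 3.11.15 (numpy 2.4.6, pandas 2.3.3, scipy 1.17.1). CPM used TMM-scaled totals, TPM the union exon length of GENCODE M21, and intervals of count ratios hold counting error only. Genes overlap or neighbour by annotated ends, and anchors count within 10 kb.

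Named with values are called members, the member of each subfamily with the highest control TPM, Kdm1a, overlapping and nearest tested genes of called members, called genes of each list (at most 6), and called genes near far anchors. The lists were other bHLH genes, the Notch pathway, Groucho corepressors, the BMP-Smad pathway, the circadian clock, muscle genes, activity-induced genes and 14 lists of cell type markers; a list of markers of excitatory neurons is not reported here. The members and lists were chosen with earlier results of these data known. No count column was left out.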

Additional observations from a re-analysis of the deposited data

How the results depend on the processing

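Of the 15 called members, 13 kept their direction and their call under all 12 alternatives, and 169 of the 180 member results were kept, 11 lost the call and 0 reversed; Hes7 and Id3 account for all 11. The number of members called higher was 12 with DESeq2 (Hes7 lost), 14 with upper-quartile factors (Npas3 gained), 18 without a filter (Hes1, Hes5, Id1, Id2 and Npas3 gained), and 11 to 14 with 1 library left out. The number called lower was 2 in every alternative, and 7 to 9 were higher with a log2FC over 1. Kdm1a had a log2FC between -1.09 and -1.04. With the replicate block the counts were 11, 2 and 8 and Kdm1a had -1.07; Hes7 (adjusted p = 0.0556) and Id3 (0.0644) were not called, and no other call of a member changed. Over all genes the block gave 797 higher and 249 lower. Libraries of the same number did not deviate together over all tested genes (correlations -0.033, -0.091 and -0.15), and no library correlated best with its own number. The labels state no pairing, and such correlations cannot exclude a shared batch or litter that acts on some genes. With 1 library left out, 646 to 876 genes were higher and 137 to 584 lower. The number of CTCF loops at members, 157, became 96 at 5 PETs or more, 50 at 10 or more, 64 with anchors overlapping the gene body and 265 within 25 kb, and members with an anchor numbered 31, 22, 21 and 40. Of the 10 members highest by TPM, 8 were among the 10 highest by CPM. With 3 libraries per group and bulk tissue, members with few counts in controls have wide intervals, the cells that express a member are not known, and the 17 members below the filter were not tested for a difference. The transgene, the age at collection and the strand setting are limits on every value, and the loops come from 1 library of another cross.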
